A study of Homo sapiens with 6 samples.

Results

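The genes of 2 BET proteins (BRD2 and BRD3) and of 6 histone acetyltransferases (EP300, CREBBP, KAT6A, KAT6B, KAT2A and KAT2B) were followed through 4 lists of histone mark peaks from OCI-AML3 cells. They were chosen by name, 8 of the 20162 protein-coding genes placed on GRCh37 for H3K27Ac and of the 19671 placed on GRCh38 for H3K4me3. For each gene, the peaks of its gene body with 20 kb on either side (its window) were taken from every list.

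OCI-AML3 is an established human acute myeloid leukemia (AML) line that carries mutant NPM1 (mtNPM1), with mutations of DNMT3A and NRAS in all groups. One culture received a control guide RNA (sgNeg), and the other a guide RNA directed at mtNPM1 (sgNpm1A), by transfection. The labels give 3 days of culture before fixation, while the methods of the study give a longer time. Each mark was profiled by ChIPmentation (chromatin immunoprecipitation with adapters added by the Tn5 transposase) in 1 library per guide RNA, and the 2 inputs were not analysed here. No spread between replicates could be estimated, so no p-value is given, and every comparison describes a pair of libraries.

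Histone acetyltransferases add acetyl groups to lysines of histone tails, and BET proteins read these marks through their bromodomains and bring elongation factors to chromatin. EP300 and CREBBP (p300 and CBP) are the paralogs that place H3K27Ac at enhancers and promoters. KAT6A and KAT6B are MYST family enzymes that act in complexes with BRPF proteins on histone H3, and KAT6A is a fusion partner in rare AML. KAT2A and KAT2B (GCN5 and PCAF) are the alternative catalytic subunits of the SAGA and ATAC coactivator complexes. H3K27Ac marks active enhancers and promoters, and H3K4me3 marks active promoters.

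The lists held 327715 (sgNeg) and 317059 (sgNpm1A) H3K27Ac peaks and 353628 (sgNeg) and 106641 (sgNpm1A) H3K4me3 peaks. Peaks covered 220 and 195 Mb for H3K27Ac and 93.7 and 55.4 Mb for H3K4me3, in the same order of guides. The files give no read totals, and depth is known only for the summits of H3K4me3 peaks, whose fragment numbers could be recovered from the fold values. The names of the H3K27Ac lists carry a tag that those of the H3K4me3 lists do not, and its meaning, a different run or a different line, was not settled. Promoters of the myeloid markers held sgNeg H3K27Ac peaks at 9 of 9 genes, against 5 in sgNpm1A, and H3K4me3 peaks at 7 and 1. Of the 4 lymphoid markers 4, 3, 1 and 1 had a peak in sgNeg H3K27Ac, sgNpm1A H3K27Ac, sgNeg H3K4me3 and sgNpm1A H3K4me3, and of the 3 erythroid markers 2, 2, 1 and 0. GATA1 was without a promoter peak in every list, while PAX5 reached percentile 98.1 in sgNpm1A H3K27Ac and CD3D 94.2 in sgNpm1A H3K4me3.

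The promoter of a gene was the 1 kb on either side of its representative start, the MANE Select start where one could be placed. RefSeq sequence of GRCh38 upstream of that start matched 7 of the 8 genes. The 250 bases before the start are shown for EP300 and BRD3, which had the highest sgNeg promoter peaks of H3K27Ac and H3K4me3 among the genes, and for the paralogs KAT2A and KAT2B, which had the lowest in both marks. Each is written 5′ to 3′ on the strand of the gene, with the CpG dinucleotides in capitals.
EP300 (chr22:41092342-41092591, plus strand): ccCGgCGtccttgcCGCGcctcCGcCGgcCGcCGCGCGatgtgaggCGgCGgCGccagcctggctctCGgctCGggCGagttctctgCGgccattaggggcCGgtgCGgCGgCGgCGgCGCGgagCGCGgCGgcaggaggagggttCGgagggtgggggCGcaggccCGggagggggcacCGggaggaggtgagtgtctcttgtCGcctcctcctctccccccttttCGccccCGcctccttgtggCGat
BRD3 (chr9:134068027-134068276, minus strand): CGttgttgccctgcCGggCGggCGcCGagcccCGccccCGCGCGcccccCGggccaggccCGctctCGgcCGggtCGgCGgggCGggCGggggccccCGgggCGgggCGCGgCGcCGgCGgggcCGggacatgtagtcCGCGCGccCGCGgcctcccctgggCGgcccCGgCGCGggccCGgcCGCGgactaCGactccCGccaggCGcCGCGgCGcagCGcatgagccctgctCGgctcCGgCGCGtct
KAT2A (chr17:42121368-42121617, minus strand): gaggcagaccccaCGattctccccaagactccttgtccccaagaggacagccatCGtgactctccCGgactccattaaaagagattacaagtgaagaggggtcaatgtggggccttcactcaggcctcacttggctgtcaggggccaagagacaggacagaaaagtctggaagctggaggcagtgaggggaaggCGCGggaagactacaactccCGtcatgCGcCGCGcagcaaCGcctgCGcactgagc
KAT2B (chr3:20040196-20040445, plus strand): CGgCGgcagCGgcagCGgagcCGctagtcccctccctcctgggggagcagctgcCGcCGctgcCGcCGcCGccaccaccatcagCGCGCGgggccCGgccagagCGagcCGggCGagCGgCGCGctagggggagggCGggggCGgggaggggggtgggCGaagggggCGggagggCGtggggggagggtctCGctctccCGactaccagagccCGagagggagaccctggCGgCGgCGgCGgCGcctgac

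These stretches differed in CpG content. BRD3 held 48 CpG and EP300 35, as many as or more than 99.8% and 93.2% of the 15309 promoters of the same length, whose median was 18. KAT2B held 33 and its paralog KAT2A 11, below that median. CREBBP with 31 and BRD2 with 27 lay above it, and KAT6B with 13 below. The GC box GGGCGG, searched on both strands, occurred 6 times in BRD3, 3 times each in CREBBP and KAT2B, once each in BRD2 and KAT6B, and not in EP300 or KAT2A, against 59.0% of all promoters with at least 1. KAT6B held 4 CCAAT boxes (CCAAT on either strand, present in 34.9% of all promoters), and the other 6 held none. Among these genes, only the KAT6B stretch overlaps an annotated exon, as other RefSeq starts of KAT6B lie upstream of it.

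In sgNeg cells the promoters of all 8 genes carried a peak of H3K27Ac and a peak of H3K4me3. After the guide against mtNPM1, 3 of 8 held a H3K27Ac peak (BRD2, KAT6A and KAT2A) and 0 of 8 a H3K4me3 peak. Over all protein-coding genes such a peak was present in 71.4% and 32.4% for H3K27Ac (sgNeg and sgNpm1A) and in 65.9% and 7.60% for H3K4me3, so fewer promoters had a peak in the whole list as well. Fold enrichment, the ratio of the pileup to its expected value, is scaled within each list, so the highest promoter peak of a gene was placed by its percentile, the share of peaks of the same list with a fold no higher, with 0 for no peak. By this measure 8 of 8 genes were lower in sgNpm1A for both marks, beside 89.2% and 96.6% of all genes with a sgNeg promoter peak. In 5 of the 8 genes for H3K27Ac and in all 8 for H3K4me3, this only restates that no peak was present. For H3K27Ac, fold is a mean over the peak, so its percentiles compare means over peaks of unlike widths.

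The sgNeg peaks of these genes ranked high. Their median H3K27Ac percentile was 99.46, against 87.0 over all genes, and 5 of 8 reached the 99th percentile, as did 14.2% of all genes. For H3K4me3 the median was 98.6, against 83.0, and 4 of 8 reached the 99th percentile, beside 16.6% of all genes. The medians over all genes count those without a peak as 0. Over genes with a sgNeg promoter peak the medians were 96.7 for H3K27Ac and 97.6 for H3K4me3, much nearer to those of the 8. In sgNpm1A none of the 8 reached it, and 0.298% (H3K27Ac) and 0.132% (H3K4me3) of all genes did. Of the 8604 genes whose sgNeg H3K27Ac percentile was at least that of KAT2A, the lowest of the 8, a promoter peak in sgNpm1A was held by 2325. For H3K4me3 it was 482 of 9725 such genes.

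**Figure D1:**
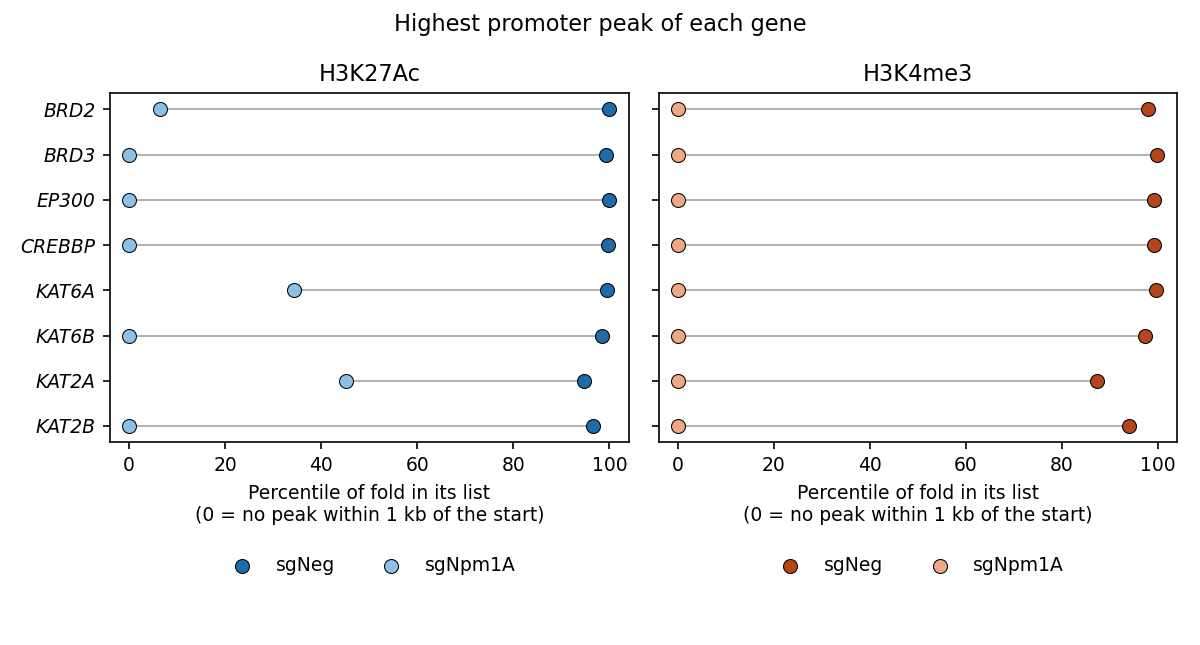
Percentile of fold enrichment of the highest promoter peak of each gene within its own list (x axis, 0 for no peak), for H3K27Ac (left) and H3K4me3 (right), with 1 library per point and no error bars. All sgNeg points lie between 87.3 and 99.985, and all sgNpm1A points at or below 45.1, with every H3K4me3 point of sgNpm1A at 0.

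EP300 had the highest H3K27Ac promoter peak of the group and the 50th highest of its whole list. In sgNeg it spanned chr22:41486654-41489492 (GRCh37), 2839 bp from 1942 bp upstream to 896 bp downstream of the start, at 12.3-fold and percentile 99.985. Its H3K4me3 peak was 2376 bp wide, the 333rd widest of the list, with 8.94-fold enrichment, which is 42 fragments at the summit. In sgNpm1A neither mark had a peak within 1 kb, and the nearest peaks lay 6156 bp from the start for H3K27Ac (percentile 39.5) and 13430 bp for H3K4me3 (percentile 53.1).

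CREBBP, its paralog, carried a sgNeg H3K27Ac promoter peak of 1551 bp at chr16:3929877-3931427 (GRCh37), with 7.67-fold enrichment and rank 761. Its H3K4me3 promoter peak began 58 bp downstream of the start, ran for 1364 bp and equalled that of EP300 in height, with 42 fragments. The sgNpm1A lists held no promoter peak here. The nearest H3K27Ac peak there, 2126 bp away and upstream, stood at percentile 96.5 with 3.81-fold enrichment, whereas the sgNeg peak at the same place was at percentile 23.1.

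BRD2 had the widest H3K27Ac promoter peak of the 8 genes, 5559 bp at chr6:32935751-32941309 (GRCh37), which reached 4938 bp downstream of the start, with 8.68-fold enrichment and rank 353. H3K4me3 in sgNeg was split over the same stretch. Its highest promoter peak had 31 fragments (6.66-fold, percentile 98.0), and a higher one of 2767 bp lay 3832 to 6598 bp downstream, with 53 fragments and 11.2-fold enrichment, over another RefSeq start of BRD2 at 4490 bp. In sgNpm1A the H3K27Ac promoter peak was 304 bp wide, lay wholly upstream of the start and had 2.66-fold enrichment, the lowest fold of its list (percentile 6.43). No H3K4me3 peak was found anywhere in the BRD2 window in sgNpm1A, as in 27.7% of all gene windows, and the nearest peak was 72147 bp from the start.

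BRD3 had the highest H3K4me3 promoter peak of the 8 genes, 1594 bp at chr9:134066456-134068049 (GRCh38) with 10.8-fold enrichment and 51 fragments. Its H3K27Ac promoter peak was 3360 bp wide with 6.34-fold enrichment and rank 2113. Both were without a counterpart in sgNpm1A, where the nearest peaks lay 2784 bp (H3K27Ac, percentile 52.7) and 4434 bp (H3K4me3, percentile 16.4) from the start.

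KAT6A carried a sgNeg H3K27Ac promoter peak of 3110 bp that covered the whole 2 kb of the promoter, at 6.86-fold and rank 1409. H3K4me3 began 46 bp downstream of the start and reached 10.6-fold, or 50 fragments, over 1352 bp. In sgNpm1A a H3K27Ac peak of 214 bp was left, 954 to 741 bp upstream of the start, with 2.83-fold enrichment and percentile 34.3, and no H3K4me3 promoter peak.

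KAT6B was lower in both marks than KAT6A. Its sgNeg H3K27Ac peak spanned 1939 bp, mostly upstream of the MANE Select start, with 5.25-fold enrichment and rank 4804. The highest H3K4me3 peak, 921 bp with 6.03-fold enrichment and 28 fragments, lay 1667 to 747 bp upstream of that start and so over 3 other RefSeq starts of the gene, at 1664, 1345 and 1121 bp upstream. With a promoter of 500 bp on either side this peak was not counted. The sgNpm1A lists held no promoter peak, and the nearest H3K27Ac peak, 1355 bp downstream, was at percentile 11.3.

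KAT2A had the lowest sgNeg promoter peaks of the group in both marks, with 3.68-fold H3K27Ac (rank 17584, percentile 94.6) and 4.16-fold H3K4me3 (19 fragments, percentile 87.3). The H3K27Ac peak, 2103 bp wide, also lay within 1 kb of the start of HSPB9, a small heat shock protein gene, so the signal cannot be given to KAT2A alone. KAT2A also held the highest sgNpm1A promoter peak of the 8 genes, 755 bp of H3K27Ac at chr17:40273691-40274445 (GRCh37), from 1060 to 306 bp upstream of the start and again near HSPB9, with 2.90-fold enrichment and percentile 45.1. KAT2B had a narrow sgNeg H3K27Ac promoter peak of 761 bp, at 4.13-fold, and a H3K4me3 peak of 373 bp with 22 fragments. No sgNpm1A peak lay at the KAT2B start, and the nearest H3K27Ac peak was 9111 bp and the nearest H3K4me3 peak 200584 bp away.

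The 3 promoter peaks that sgNpm1A H3K27Ac held all ended at least 304 bp upstream of the start. Over all genes, 34.4% of the highest sgNpm1A H3K27Ac promoter peaks lay wholly upstream of the start and 19.9% covered it. Each of the 8 sgNeg H3K27Ac promoter peaks covered the start, beside 72.2% over all genes. When every annotated transcript start of a gene was taken in place of the representative one, 8 of 8 genes held a H3K27Ac promoter peak in sgNpm1A, beside 57.0% of all genes, and 0 of 8 a H3K4me3 peak, beside 9.49%. The shares of all genes were not matched for the number of starts. Such peaks can lie deep in a gene. The highest of CREBBP began 105435 bp and that of EP300 65259 bp downstream of the representative start. The counts thus do not show a peak kept at the main promoter. These counts cannot be set against each other between marks, since the GRCh37 annotation holds 5 to 35 starts for each of these genes and that of GRCh38 between 1 and 4, with a single start for EP300, KAT6A, KAT2A and KAT2B. All 8 genes were then still at a lower H3K27Ac percentile in sgNpm1A, by 5.38 points for KAT6B up to 63.1 for BRD2.

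**Figure D2:**
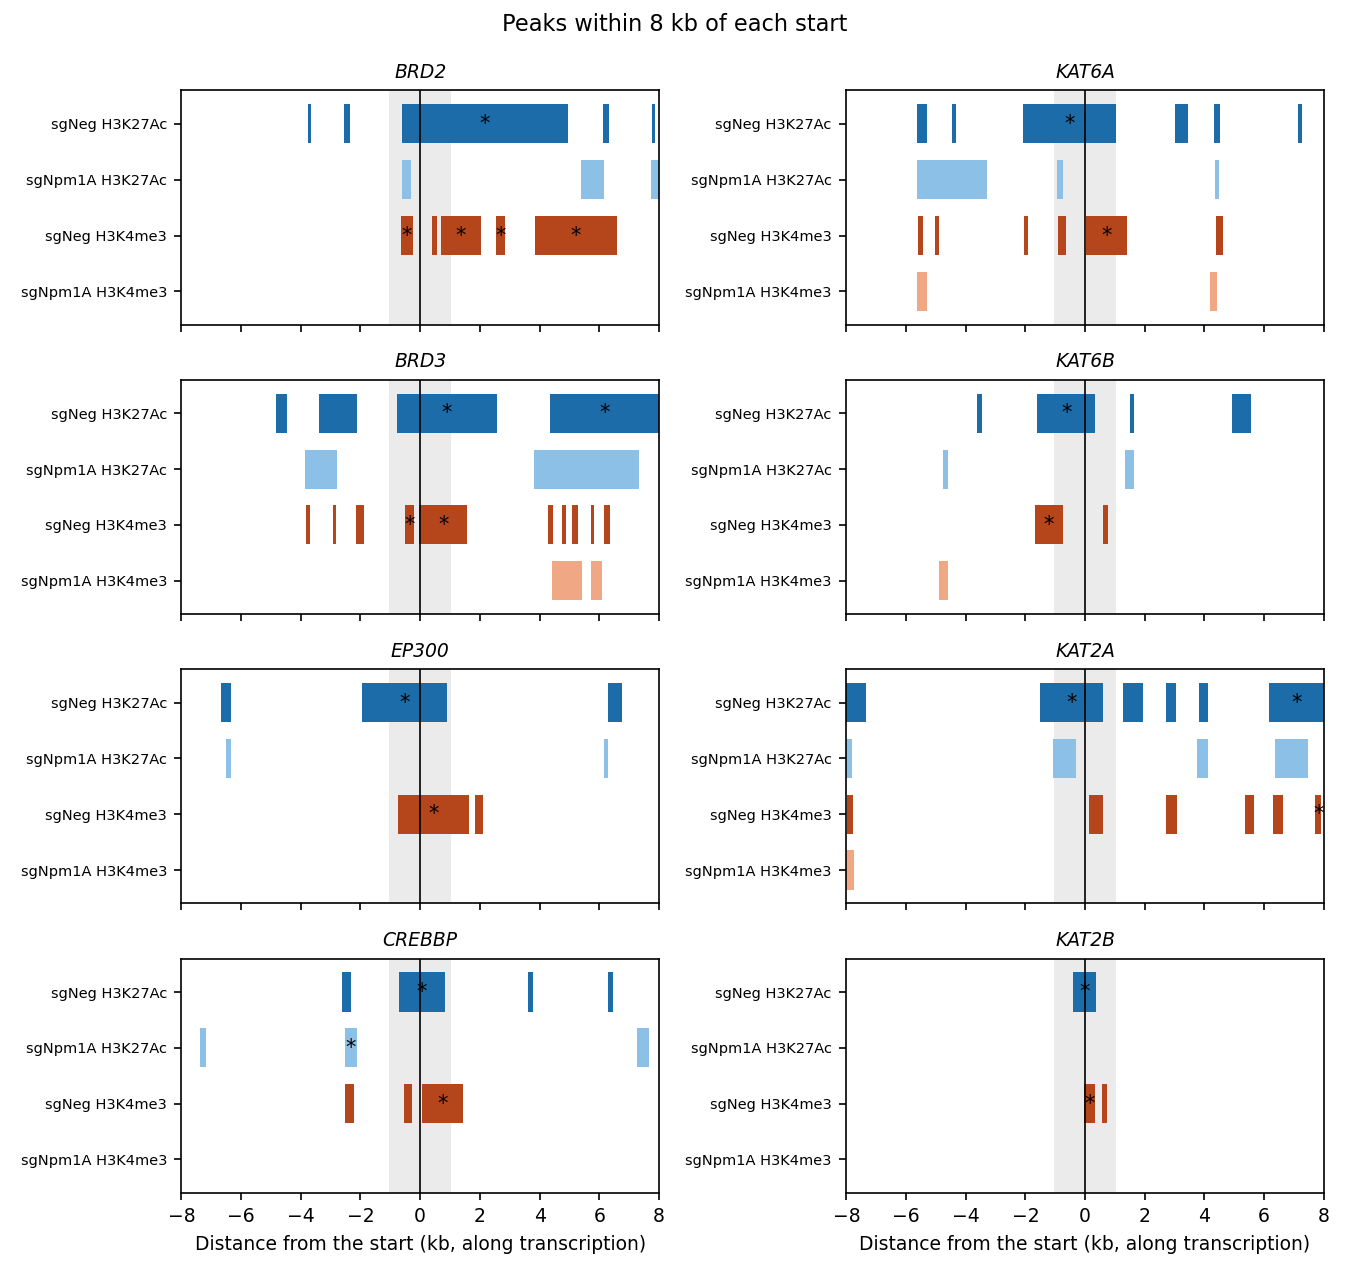
Peaks within 8 kb of the representative start of each gene, in 4 rows for the 4 lists, along the direction of transcription (x axis, kb); grey marks the promoter, and a star a peak at percentile 90 or higher. The highest sgNeg promoter peaks are starred for all 8 genes in H3K27Ac and for 7 of 8 in H3K4me3, where that of KAT2A is at percentile 87.3, and no sgNpm1A peak lies over a start.

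The order of the sgNeg H3K4me3 promoter peaks was not resolved between neighbors. By summit fragments, with exact Poisson 95% intervals that cover counting error only, BRD3 had 51 (37.97 to 67.1), KAT6A 50 (37.1 to 65.9), EP300 and CREBBP 42 each (30.3 to 56.8), BRD2 31 (21.1 to 44.002), KAT6B 28 (18.6 to 40.5), KAT2B 22 (13.8 to 33.3) and KAT2A 19 (11.4 to 29.7). Intervals of genes next to each other in this order overlapped. The interval of KAT2A lay below those of BRD3, KAT6A, EP300 and CREBBP, and that of KAT2B below those of BRD3 and KAT6A. Each summit is the maximum of a peak picked as the highest of its promoter. The intervals treat it as a plain count and leave this choice out, so a gap between them does not settle the order.

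Over the whole windows, a larger part of H3K27Ac than of H3K4me3 coverage was left in sgNpm1A. The lists of the marks were not called alike, so this is no like comparison of the marks. The highest q-value was 0.0707 (sgNeg) and 0.0437 (sgNpm1A) for H3K27Ac, and 0.0308 and 0.0226 for H3K4me3. The narrowest peaks had 110 and 140 bp for H3K27Ac, and 110 and 245 bp for H3K4me3. Summed over the 8 windows, sgNpm1A peaks covered 81419 bp of H3K27Ac against 114429 bp in sgNeg, a ratio of 0.712, beside 0.884 for the covered length of the whole lists. H3K4me3 covered 13098 against 44807 bp, a ratio of 0.292, beside 0.591. The median ratio of the 8 windows was 0.646 for H3K27Ac and 0.211 for H3K4me3, beside 0.722 and 0.342 as the medians of all gene windows. The covered length was lower in sgNpm1A in 6 of 8 windows for H3K27Ac, beside 67.1% of all windows, and in 8 of 8 for H3K4me3, beside 94.0%. A H3K27Ac peak was left in each of the 8 sgNpm1A windows, where 7.18% of all windows had none.

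H3K27Ac coverage was higher in sgNpm1A in the KAT6A window, from 11.6 to 13.6% (ratio 1.17), and in the KAT2B window, from 1.93 to 2.19% (ratio 1.14). EP300 was nearly level at 6.07 and 5.78%. The ratio was 0.664 for BRD2, 0.628 for CREBBP, 0.586 for BRD3, 0.565 for KAT2A and 0.474 for KAT6B. KAT2A, with 36.9 and 20.9%, and BRD3, with 29.1 and 17.1%, were the most covered windows with either guide. For H3K4me3, BRD3 went from 11.5 to 7.52% (ratio 0.656) and KAT6A from 6.24 to 2.44% (0.391), whereas EP300 (0.0898), CREBBP (0.0545), BRD2 and KAT2B (0 each) held little or nothing in sgNpm1A. The windows of KAT6B and KAT2A lay between, at ratios of 0.366 and 0.332.

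**Figure D3:**
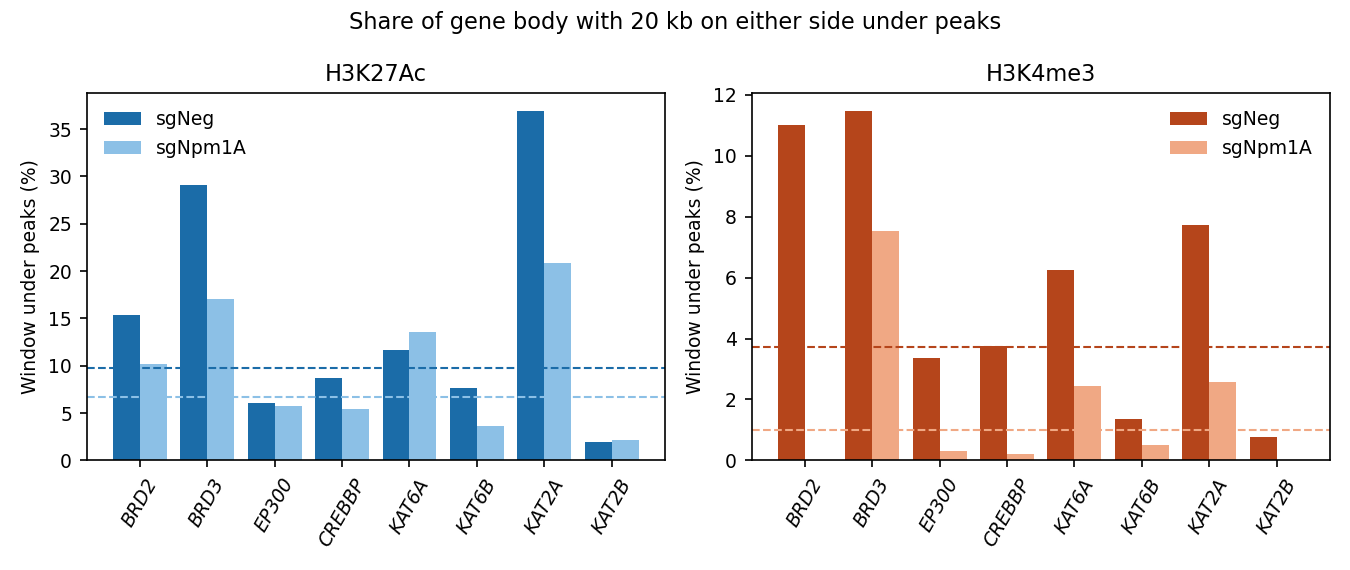
Share of each window under peaks (y axis, %), for H3K27Ac (left) and H3K4me3 (right), 1 library per bar and no error bars; dashed lines give the median of all gene windows for the guide of that color. KAT2A, BRD3 and KAT6A stand above the medians in both marks with both guides, and the sgNpm1A H3K4me3 bars of BRD2 and KAT2B are at 0.

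The covered length was also taken without the 1 kb on either side of the start, the same stretch in both lists. For H3K27Ac it came to 101859 bp in sgNeg and 80206 bp in sgNpm1A over the 8 windows, a ratio of 0.787. It was higher in sgNpm1A in 3 of 8 genes, a share near the 38.3% of all genes. These were KAT2B with 2211 and 3375 bp (ratio 1.53), KAT6A with 16926 and 21908 bp (1.29) and EP300 with 5841 and 7367 bp (1.26). BRD2 had 6530 and 5112 bp (0.783), and the other 4 genes had ratios from 0.510 for KAT6B to 0.691 for CREBBP. When 5 kb on either side were left out, BRD2 was higher in sgNpm1A as well, with 2275 and 5112 bp. Over all genes with such sgNeg coverage, 7562 of 18775 were then higher in sgNpm1A. For H3K4me3 no gene had more covered length away from the start in sgNpm1A, beside 8.35% of all genes, and the ratio over the 8 windows was 0.354.

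**Figure D4:**
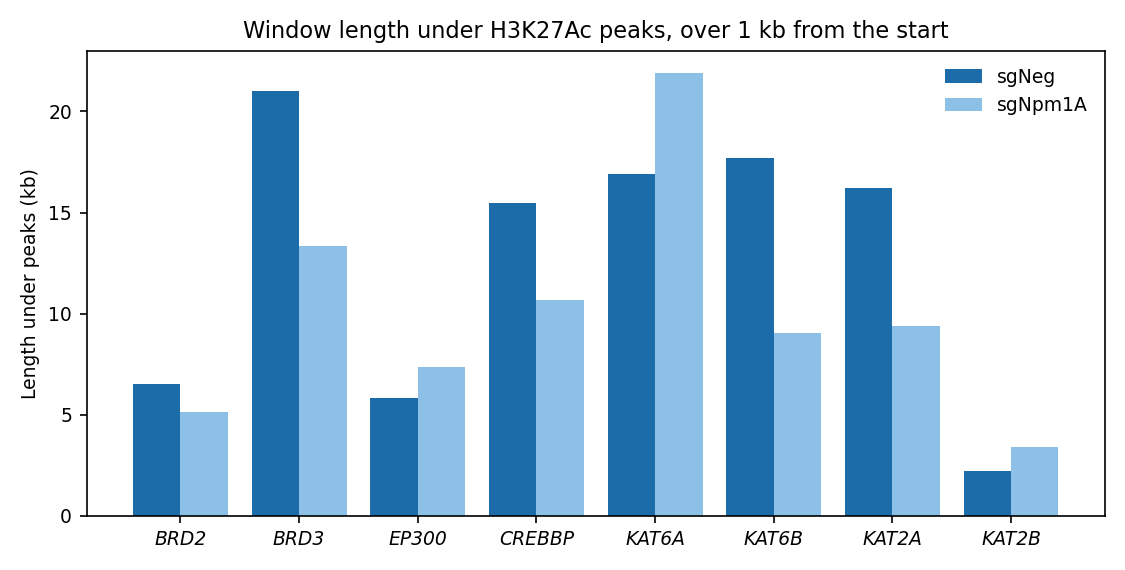
Length of each window under H3K27Ac peaks, without the 1 kb on either side of the start (y axis, kb), in sgNeg and sgNpm1A, 1 library per bar and no error bars. The bars of EP300, KAT6A and KAT2B are taller in sgNpm1A, and those of the other 5 genes shorter.

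Peaks were placed against the exons of all annotated transcripts of a gene, while intron and exon numbers are those of the MANE transcript. Of the 198 sgNeg H3K27Ac peaks of the windows, 85 were intronic and 20 touched an exon. Another 25 lay within 1 kb of another annotated start of the gene, and 60 were in the flanks. In sgNpm1A 66 of 158 were intronic, 21 touched an exon, 24 lay near another start and 44 in the flanks. Intronic peaks were narrow, with a median of 210 bp in sgNeg and 262 bp in sgNpm1A, beside 2471 bp for the 8 sgNeg promoter peaks. Exons of GRCh38 were not used here, so H3K4me3 peaks are only placed in the gene body, which held 91 of 155 in sgNeg and 16 of 28 in sgNpm1A.

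Of the sgNeg H3K27Ac peaks in the windows 40.4% (95% Wilson interval 33.8 to 47.4) overlapped a sgNpm1A peak, beside 50.7% of the whole list, and 79 of the 158 sgNpm1A peaks (42.3 to 57.7%) overlapped a sgNeg peak, beside 51.4%. For H3K4me3 these shares were 14.8% (10.1 to 21.3) beside 22.6%, and 71.4% (52.9 to 84.7) beside 61.2%. The intervals treat neighboring peaks of a pair of libraries as independent, so they cover counting error only and no spread between libraries.

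Some intronic sites stood at higher percentiles in sgNpm1A than any of the promoters, of which the highest was at 45.1. For H3K27Ac this was common in the windows. The median sgNpm1A percentile was 51.0 for the 155 peaks outside promoters and 62.4 for the intronic ones. The sites named below were picked after the lists were seen, for high sgNpm1A percentiles, which favors a higher rank there than in sgNeg. The share of all shared peaks that ranked higher in sgNpm1A was not taken. Here too, H3K27Ac percentiles compare means over peaks of unlike widths. In KAT6A, the highest H3K27Ac peak of the sgNpm1A window lay in intron 8, 85156 to 85726 bp downstream of the start, with 4.25-fold enrichment and percentile 98.7. The sgNeg peak at this site was at percentile 95.8 with 3.88-fold. H3K4me3 had a peak at the same distance in both lists, with 31 fragments (percentile 98.0) in sgNeg and 17 (percentile 91.0) in sgNpm1A. In KAT6B the highest sgNpm1A H3K27Ac peak, 192 bp in intron 13 with 4.14-fold enrichment, was at percentile 98.4, and its sgNeg counterpart at 84.2 with 3.15-fold. KAT2B peaks in intron 5 (68164 bp downstream, percentile 93.0 in sgNpm1A and 74.4 in sgNeg) and intron 3 (58898 bp downstream, 88.4 and 33.3) were likewise higher in sgNpm1A by rank, as was one in intron 1 of EP300 (7996 bp downstream, 85.9 and 74.7). The reference sequence (GRCh37, plus strand) under the KAT6B peak is given because it was second only to the KAT6A site among sgNpm1A H3K27Ac peaks of the windows. It held 3 CpG, in capitals.
KAT6B intron 13 (chr10:76754677-76754868): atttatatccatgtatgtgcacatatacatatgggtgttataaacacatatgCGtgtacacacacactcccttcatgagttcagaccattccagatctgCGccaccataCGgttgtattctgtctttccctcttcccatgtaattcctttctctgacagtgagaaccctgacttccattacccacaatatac

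Conversely, intron 4 of KAT6B held wide sgNeg H3K27Ac peaks of 2507 bp (percentile 81.2) and 1417 bp (percentile 95.2) that no sgNpm1A peak overlapped. Intron 1 of BRD3 held broad H3K27Ac with both guides, in sgNeg as 4241 bp (percentile 91.2) and 4559 bp (72.2), and in sgNpm1A chiefly as 3522 bp (81.5) and 3004 bp (59.8).

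The 28 H3K4me3 peaks that sgNpm1A held in the windows were set against the other lists by distance from the start, which runs alike to the gene end in both builds. Distances in the flanks were not checked between builds, so matches to H3K27Ac there, as for both KAT2A sites below, assume that they run alike. A sgNeg H3K4me3 peak overlapped 20 of the 28, a sgNpm1A H3K27Ac peak 17, a sgNeg H3K27Ac peak 17, and all 3 lists 12. These 12 lay in KAT6A (5 of its 10), BRD3 (5 of its 10) and KAT2A (2 of its 3). In BRD3 they were at 4.43 to 13.3 kb in the gene body and at 20 kb upstream, with 10 to 15 fragments. In KAT2A both were in the flanks, 7747 bp upstream and 26139 bp downstream of the start, with 12 fragments each. Besides the intron 8 site, KAT6A had 1 at exon 17, 117941 bp downstream with 16 fragments. Its others were weaker, 5647 to 5306 bp upstream (11 fragments), and 4177 and 103283 bp downstream (10 and 12 fragments). These sites were noticed after the lists were seen.

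The 2 windows with most of these sites differ in their chromosomes. Chromosome 8, which holds KAT6A, was the densest of 24 chromosomes in every list, with 2.33 (sgNeg H3K27Ac), 2.39 (sgNpm1A H3K27Ac), 3.16 (sgNeg H3K4me3) and 3.67 (sgNpm1A H3K4me3) times the peaks per Mb of all chromosomes. Chromosome 17, which holds KAT2A, had 1.71, 1.55, 1.88 and 1.81 times. Chromosome 9, which holds BRD3, was below all chromosomes, with 0.786, 0.791, 0.694 and 0.612 times. The BRD3 window itself, with 10 sgNpm1A H3K4me3 peaks, had 128 per Mb against 34.6 over all chromosomes. The KAT6A window had 61.5 sgNpm1A H3K4me3 peaks per Mb, fewer than the 127 of its chromosome, and the KAT2A window 62.2 beside 62.6. The part of chromosome or local density in the KAT6A, KAT2A and BRD3 values was not tested.

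**Figure D5:**
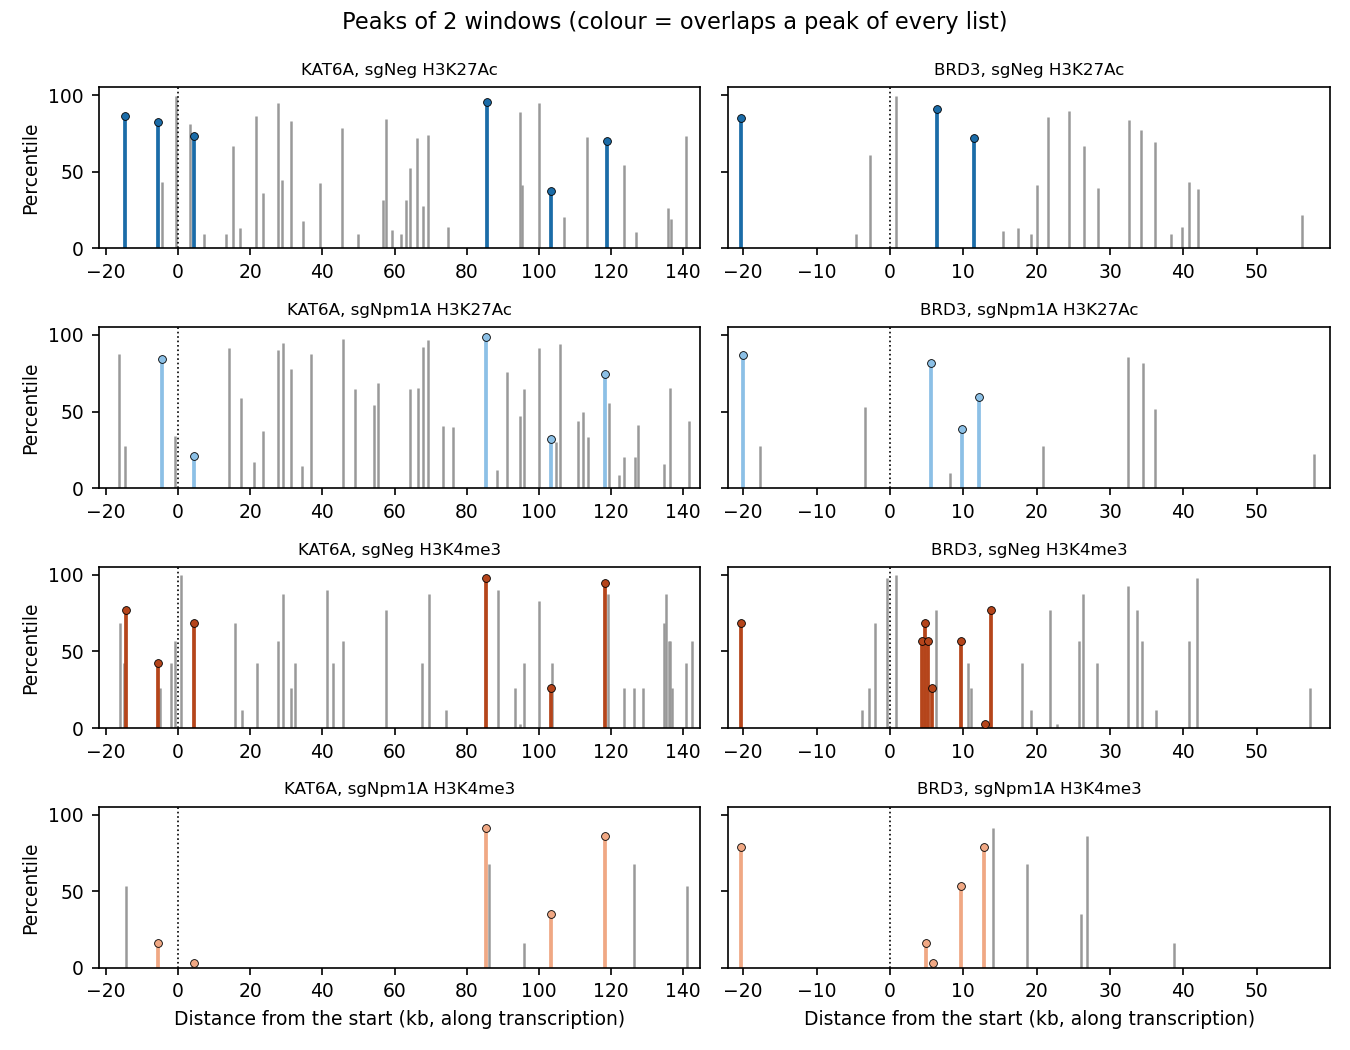
Peaks of the KAT6A (left) and BRD3 (right) windows in the 4 lists, as percentile within the list (y axis) by distance of the peak center from the start (x axis, kb along transcription); colored stems with dots overlap a peak of each other list. In KAT6A the dotted stem near 85 kb stands at percentile 98.7 in sgNpm1A H3K27Ac and 91.0 in sgNpm1A H3K4me3, while the sgNpm1A stems at the start of both genes are low or missing.

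Some high peaks of the windows belong to neighbors. In the CREBBP window, a sgNeg H3K4me3 peak with 45 fragments (percentile 99.4) and a H3K27Ac peak at percentile 97.8 lay at the start of TRAP1, a mitochondrial chaperone gene, so the highest H3K4me3 peak there was not that of CREBBP. At TRAP1 the sgNpm1A H3K27Ac peaks were at percentiles 11.0 and 26.96. In the BRD3 window, BRD3OS had a sgNeg H3K4me3 peak of 30 fragments and no peak in sgNpm1A. Peaks at the start of DHX58, a cytosolic RNA sensor gene beside KAT2A, were at percentile 91.8 in sgNeg H3K27Ac and 90.9 in sgNpm1A H3K27Ac. HLA-DMA, in the BRD2 window, and ZNF385C, in that of KAT2A, had a peak at their start only in sgNpm1A H3K27Ac, at percentiles 6.43 and 44.6.

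Of 56 other genes of the same machinery, chosen with results of these data known, 55 had a H3K27Ac promoter peak in sgNeg and 14 in sgNpm1A, and 49 had a H3K4me3 promoter peak in sgNeg and 1 in sgNpm1A. The sgNpm1A counts stand beside 32.4% and 7.60% of all genes, and beside the 2325 of 8604 and 482 of 9725 genes that ranked as high in sgNeg as the 8 did. Nothing particular to the subgroups can be read from counts this small. The percentile was lower in sgNpm1A in 54 of 55 genes for H3K27Ac and in 49 of 49 for H3K4me3, beside the shares of 89.2% and 96.6% over all genes given above. BRDT, the BET protein of the testis, had no H3K27Ac promoter peak in sgNeg and one at percentile 67.1 in sgNpm1A. JMJD6 and NSD3, partners of BET proteins in elongation, stood at percentiles 99.92 and 99.89 in sgNeg H3K27Ac. In sgNpm1A JMJD6 had no promoter peak, and NSD3 had one at percentile 78.9.

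All 6 partners of the KAT6 complexes on the list were without a promoter peak in sgNpm1A in both marks. They included BRPF1 and BRD1, the scaffolds that activate these enzymes, whose sgNeg H3K4me3 percentiles were 99.90 and 99.86. Of 16 SAGA and ATAC subunits 5 had a sgNpm1A H3K27Ac promoter peak and 0 a H3K4me3 peak. TAF5L, a structural subunit of SAGA, had the highest sgNeg H3K4me3 promoter peak of the list (15.2-fold, percentile 99.96). Of 10 other acetyltransferases 3 had a sgNpm1A H3K27Ac promoter peak and 0 a H3K4me3 peak.

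Among 16 deacetylases, the enzymes of the opposite reaction, 4 had a sgNpm1A H3K27Ac promoter peak, and the 3 highest sgNpm1A H3K27Ac peaks of the list were theirs. HDAC7 was at percentile 90.9 (98.0 in sgNeg), HDAC10 at 87.9 (95.9 in sgNeg), and HDAC3 at 87.7 (78.7 in sgNeg). By percentile, HDAC3 was thus the exception among the 55. Its promoter peak was 3900 bp wide in sgNeg (3.05-fold) and 196 bp wide in sgNpm1A (3.40-fold). Fold is a mean over H3K27Ac peaks, so these percentiles, like the other H3K27Ac percentiles given here, compare means over unlike widths. They do not show more acetylation at HDAC3 in sgNpm1A. HDAC10 also had the single H3K4me3 promoter peak of the list in sgNpm1A, 302 bp at percentile 34.8.

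Only 3 of the 8 genes had a promoter peak in at least 3 lists, and genes with the most similar percentiles over the 4 lists were sought for them among 19096 genes placed in both builds. Closest to BRD2 were AZU1, a neutrophil granule protein gene, and ANGEL2, which differed from it by at most 0.189 and 0.392 percentile points in any list. KAT6A was closest to VASP, an actin regulator gene (0.178), and LBR, the lamin B receptor gene (0.368). KAT2A was closest to RNF208 (1.57) and CD151, a tetraspanin gene (3.00). Each of the 4 values of a gene comes from 1 library, and the likeness describes these lists only.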

How the data were processed

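Peak lists of H3K27Ac and H3K4me3 from OCI-AML3 cells were analysed, 1 library per guide RNA and mark, grouped by sample title. The submitters' processing notes name bcl2fastq 2.17, Trimmomatic 0.33, Bowtie 1.1.2, MACS2 2.1.0 and deepTools, with hg38 as the build. Thresholds, the use of the inputs and any shift for Tn5 are not given in the sources used here. The authors' fold enrichment is a deposited ratio, at the summit of H3K4me3 peaks and as a mean over H3K27Ac peaks. Deposited −log10 values of p and q served in the alternatives, and the deposited score and summit offset were not used.

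H3K27Ac peaks on chromosome 1 ended at 249218478 and 249212461, beyond the hg38 length of the chromosome, so GRCh37 applies to those lists. H3K4me3 peaks on chromosome 17 ended at 83201880 and 83201881, beyond its hg19 length, so GRCh38 applies to these. No coordinates were converted. Gene starts came from GENCODE version 44 mapped to GRCh37 (MANE Select for 18922 genes) and from RefSeq tables of GRCh38. There the MANE start was recognised by its first 50 transcribed bases for 13601 genes, and for 6070, KAT6A among them, the gene record gave the start. The KAT6A upstream sequence was not used here.

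Distances run along transcription. An overlap was at least 1 bp. H3K4me3 folds followed (pileup + 1)/(background + 1), with whole pileups for 100% of peaks within 0.01 and a background of 3.81 (sgNeg) and 2.93 (sgNpm1A) fragments. The lowest pileup of a peak was 11 and 10 fragments.

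The genes and lists were chosen with earlier results of these data known. All 8 genes are named in every list. Of the pathway genes, the 3 highest per list are named, except for an item that is not reported here. For each gene with a promoter peak in at least 3 lists, the 2 genes with the smallest maximal difference in percentile are named. Alternatives were stricter q-values, the 20000 peaks of lowest p-value, other promoter widths, every annotated start, a covered share over 25%, flanks of 0 and 50 kb, and ranking by p-value. Python 3.11.15, pandas 2.3.3, numpy 2.4.6, scipy 1.17.1 and matplotlib 3.10.9 were used, and overlaps were tested on simulated data.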

Additional observations from a re-analysis of the deposited data

How the results depend on the processing

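The number of genes with a promoter peak in sgNpm1A H3K27Ac, 3, was 0 with a q-value under 0.01 (12.3% of all genes), 0 under 1e-05 (0.273%) and 0 among the 20000 peaks of lowest p-value (2.23%). It was 1 where over 25% of the promoter had to be covered (13.4%) and 8 with every annotated start (57.0%, not matched for the number of starts). With promoters of 5 kb on either side, a width added after seeing the data, it was 6 for H3K27Ac (68.2% of all genes) and 3 in place of 0 for H3K4me3 (26.8%). The ratio of covered length in the windows fell to 0 (q-value under 1e-05) and 0.195 (20000 peaks) for H3K27Ac and to 0.0578 and 0.081 for H3K4me3. Without the KAT6A window the ratio was 0.621 for H3K27Ac and 0.263 for H3K4me3, and without the BRD3 window 0.743 and 0.201, both added after seeing the data. The percentile was lower in sgNpm1A in 8 of 8 genes for each mark under most settings. It was lower in 6 for H3K27Ac with a q-value under 1e-05, and for H3K4me3 in 6 among the 20000 peaks, 6 with over 25% covered and 7 with promoters of 500 bp, since sgNeg had no promoter peak in the others. Where sgNpm1A has no peak, a lower percentile restates its absence. The H3K27Ac covered length was higher in sgNpm1A for EP300 as well without flanks, and for KAT6A alone with flanks of 50 kb. Of the 8 genes, 4 in place of 3 had more H3K27Ac away from the start in sgNpm1A when 5 kb were left out, a zone added after seeing the data. Over all genes it was 7562 of 18775, so the count is near the common share. No paired analysis was possible because each group held 1 library, which also leaves no replicate to leave out.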
